A study of Mus musculus with 6 samples.

Results

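The genes described here drive and mark cell division. The list holds 33 mouse genes for DNA replication and mitosis, chosen by name, and each matched 1 locus among the 44794 loci with a gene name in the deposited table (426574 loci in all). Spleen RNA was sequenced from 6 samples, 3 of genotype B6.Sle1b and 3 of genotype Sle1b.IFNγR-/-. B6.Sle1b is a C57BL/6 line that carries the Sle1b lupus susceptibility interval, and the labels call it the autoimmune-prone control. Sle1b.IFNγR-/- carries the same interval and lacks the interferon-γ receptor, and the labels do not say which subunit was disrupted. Imiquimod, which activates TLR7, was given to both groups 3 times each week over 4 weeks, so every library comes from a stimulated spleen and no untreated spleen is included. Age, sex and the number of mice behind a library are not given in the labels, so each p-value reflects only how far these samples spread, which may be technical. The comparison asks which transcripts depend on interferon-γ signalling in spleens where TLR7 drives autoreactive B cells into antibody-forming and germinal centre pathways.

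A dividing cell first loads the MCM helicase (Mcm2 to Mcm7) at replication origins, then copies its DNA with the sliding clamp Pcna and nucleotides made by ribonucleotide reductase, thymidylate synthase and thymidine kinase. Cyclin B with Cdk1 then starts mitosis. The spindle checkpoint delays chromosome separation until the chromosomes are attached, and the anaphase promoting complex ends mitosis. Many of these genes are silent in resting cells and are switched on together by E2F, MYBL2 and FOXM1 factors at their promoters. In the spleen of a stimulated mouse the dividing cells include germinal centre B cells, plasmablasts, activated T cells and erythroid precursors. In whole tissue, fewer dividing cells and less RNA per cell cannot be told apart.

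Because the members share promoter elements, the 250 bases before the transcription start of 5 members on which the results turn are shown. The sequences come from RefSeq on GRCm38.p6, in the direction of transcription. Capitals mark CCAAT boxes (CCAAT, bound by NF-Y), cell cycle homology regions (TTTGAA or TTCGAA, bound by the DREAM and MYBL2 complexes) and E2F strings (TTTGGCGC, TTTCCCGC, TTTCGCGC or TTTGCCGC), on either strand.
Mki67 (chr7:135716380-135716629, minus strand): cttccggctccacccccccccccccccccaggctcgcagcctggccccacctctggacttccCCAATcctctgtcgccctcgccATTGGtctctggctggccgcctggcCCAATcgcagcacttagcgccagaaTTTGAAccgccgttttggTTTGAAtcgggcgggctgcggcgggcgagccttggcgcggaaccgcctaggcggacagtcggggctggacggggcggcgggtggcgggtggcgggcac
Top2a (chr11:99024190-99024439, minus strand): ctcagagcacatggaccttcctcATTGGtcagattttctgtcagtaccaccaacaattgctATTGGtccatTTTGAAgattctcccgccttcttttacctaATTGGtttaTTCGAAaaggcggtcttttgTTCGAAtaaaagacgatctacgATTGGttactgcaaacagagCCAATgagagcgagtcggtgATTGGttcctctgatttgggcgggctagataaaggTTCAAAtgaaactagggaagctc
Cdc20 (chr4:118437344-118437593, minus strand): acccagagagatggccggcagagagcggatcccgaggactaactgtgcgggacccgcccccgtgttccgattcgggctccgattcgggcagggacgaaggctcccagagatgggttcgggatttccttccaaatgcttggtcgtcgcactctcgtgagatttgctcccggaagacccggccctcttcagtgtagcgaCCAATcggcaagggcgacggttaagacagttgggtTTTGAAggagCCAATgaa
Kif11 (chr19:37376132-37376381, plus strand): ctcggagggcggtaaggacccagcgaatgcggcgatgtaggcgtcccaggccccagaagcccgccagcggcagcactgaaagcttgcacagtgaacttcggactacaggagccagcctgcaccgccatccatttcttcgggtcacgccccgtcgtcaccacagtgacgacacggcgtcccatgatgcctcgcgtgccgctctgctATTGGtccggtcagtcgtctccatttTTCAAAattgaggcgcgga
Mcm5 (chr8:75109259-75109508, plus strand): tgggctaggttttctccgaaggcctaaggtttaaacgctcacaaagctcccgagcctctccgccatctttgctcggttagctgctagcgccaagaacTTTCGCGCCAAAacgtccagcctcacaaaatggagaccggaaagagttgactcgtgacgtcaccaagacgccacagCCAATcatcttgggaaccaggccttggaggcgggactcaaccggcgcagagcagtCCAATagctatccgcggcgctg
A promoter was matched for 28 members, with 1 window taken per gene, and no match to one element overlapped a match to another. A CCAAT box was found in 23 of the 28 windows (82.1%), against 34.5% of all 27025 promoters of the same length and 36.1% of the 11740 promoters of genes tested in these spleens. At least 2 boxes stood in 16 of the 28 (57.1%, against 10.5% of all promoters). The cell cycle homology region string was present in 10 of 28 (35.7%, against 17.5%), with Mki67 and Top2a among them, and each of those 10 windows also held a CCAAT box. Among mitotic members it stood in 6 of 14, and among members for replication and nucleotide supply in 2 of 10. E2F strings were in 4 windows (14.3%, against 1.92%), those of Mcm5, Mcm6, Mcm7 and Cdk1. No string was found in the windows of E2f1, Birc5, Nusap1, Tk1 and Tyms. The windows of E2f1, Ezh2 and Mcm7 lay wholly inside the gene spans of the GENCODE M21 annotation. For these genes the matches, or their absence, do not describe the bases before the start in that annotation. These matches describe the letters only.

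The authors counted fragments at each locus and scaled the libraries by quartile, and these values are called scaled counts. The 6 libraries held between 4394299 and 6349827 fragments, of which 17.5% to 27.0% lay at loci with a gene name. That share was highest in B6.Sle1b replicate 1 and lowest in B6.Sle1b replicate 2, with the other libraries between 19.2% and 20.0%. One library stood apart by the median log2 level of 28 ribosomal protein genes, each gene centred on its mean over the 6 libraries. This centred level was 1.63 in B6.Sle1b replicate 1, against -0.42 and -0.02 in replicates 2 and 3 and between -0.23 and -0.18 in Sle1b.IFNγR-/-. B6.Sle1b replicate 2 was the lowest by the same measure. The interferon-γ-induced chemokine gene Cxcl9, a check of the genotype contrast, stood at 207, 46.04 and 67.5 scaled counts in the B6.Sle1b libraries, against 6.12, 15.7 and 7.19 without the receptor. Ifngr1, which encodes the ligand-binding receptor chain, had 81.5, 34.5 and 63.7 against 43.7, 21.4 and 24.0, with overlap, and Ifngr2 had 13.2, 12.3 and 7.50 against 5.25, 10.1 and 4.79. Transcript can persist from a disrupted gene, so receptor levels are no check of genotype. Vcam1, which marks the red pulp macrophages of the spleen, was present in every library, from 72.3 to 563.5 scaled counts.

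The members as a group were far higher in 1 B6.Sle1b library than in the other 5, and no member differed between the genotypes past the test. Their summed scaled counts stood at 5295, 1070 and 1807 in replicates 1 to 3 of B6.Sle1b, against 1626, 1671 and 1467 in those of Sle1b.IFNγR-/-. The 3 receptor-deficient libraries thus lay close together, and inside the range of B6.Sle1b. As a share of all values at named loci, the members made up 0.342%, 0.117% and 0.175% in the B6.Sle1b libraries, against 0.163%, 0.16% and 0.142% without the receptor, so B6.Sle1b replicate 1 stood out by this share as well. That library had the highest value of 28 of the 33 members, while it was highest at 37.9% of all loci tested. B6.Sle1b replicate 2 had the lowest value of 15 members, against 24.3% of all loci tested. Over the 30 members tested, B6.Sle1b replicate 1 had a median of 3.28 times the mean of the other 5 libraries, against 1.18 times over all loci tested. In 22 of these 30 it exceeded that mean more than 2-fold, which 16.8% of all loci tested did. Summed scaled counts of 29 ribosomal protein genes were 3682, 852 and 1242 in B6.Sle1b, against between 1053 and 1075 in Sle1b.IFNγR-/-. For 12 housekeeping genes they were 3096, 583 and 1092, against between 866 and 891. The excess in B6.Sle1b replicate 1 was therefore not particular to the members.

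**Figure D1:**
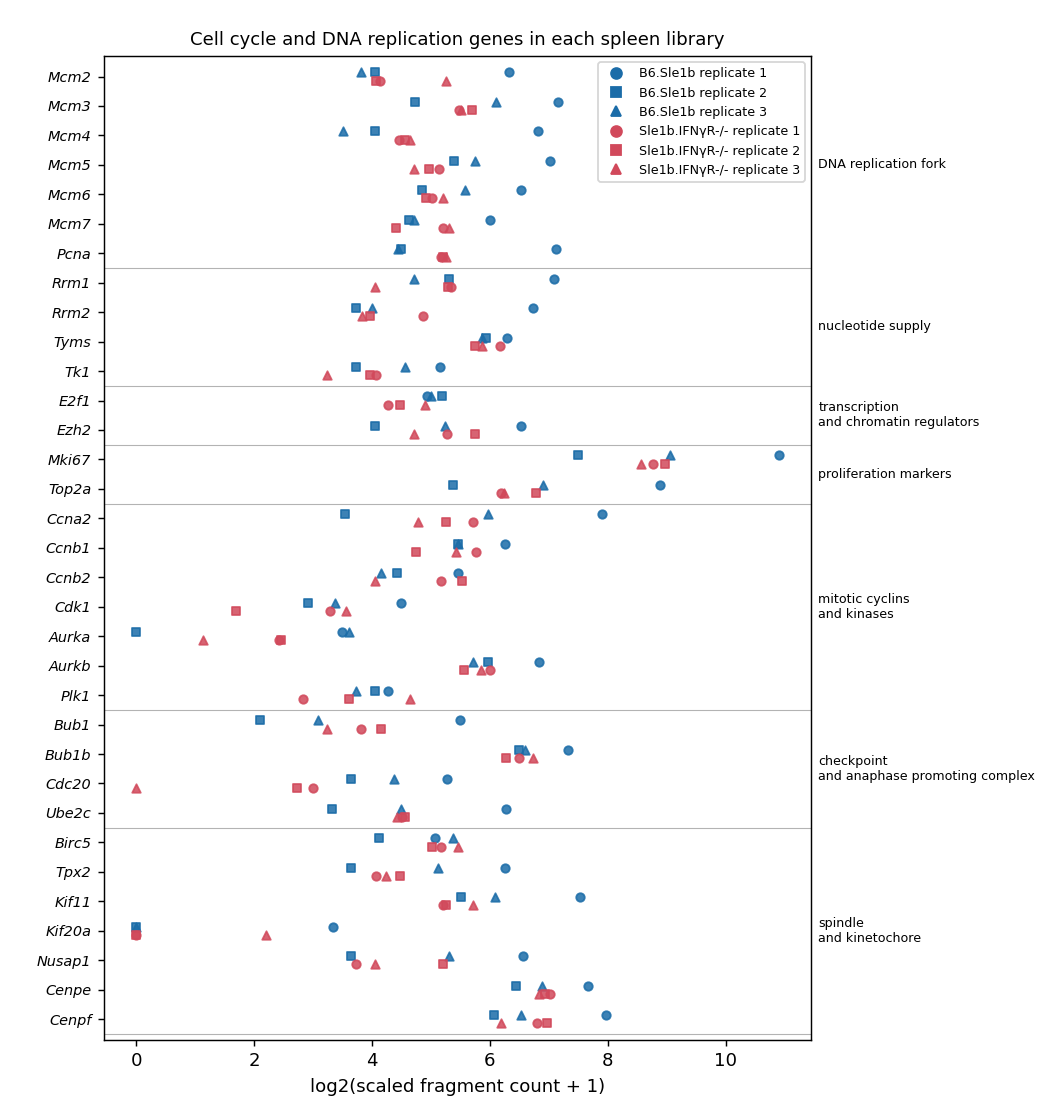
Scaled fragment counts of the 33 members on a log2(value + 1) axis, 1 point per library, with B6.Sle1b in blue, Sle1b.IFNγR-/- in red and replicates 1, 2 and 3 as circles, squares and triangles. The blue circle of B6.Sle1b replicate 1 is the highest point in 28 of 33 rows.

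The test across all genes was limma on log2(scaled count + 1), on the 19227 named loci whose mean reached 10. Of the 33 members 30 had such a mean. Cdk1, Aurka and Kif20a did not, and are given as values only. With a Benjamini-Hochberg adjusted p under 0.05 as the threshold, 0 of 30 members were called (limma, adjusted p = 0.9998 for each), as were 0 of all loci (0%). The check gene Cxcl9, lower in Sle1b.IFNγR-/- by 3.14 on the log2 scale (SE 0.53), was not called either (limma, unadjusted p = 5.5e-05, adjusted p = 0.9998). A p above the threshold does not show that a member was equal in the groups. At an unadjusted p under 0.05 there were 3 members, all lower in Sle1b.IFNγR-/- (Mcm5, Cdc20 and Kif11), where 2.08% of all loci tested were lower and 1.02% higher, 3.1% in all. In 3 members all receptor-deficient libraries lay below all B6.Sle1b libraries (Mcm5, E2f1 and Cdc20, against 5.19% of all loci), and 0 members lay the other way (3.51%, or 8.7% in either direction). In 27 of the 30 members the log2 difference, Sle1b.IFNγR-/- minus B6.Sle1b, was below 0, against 58.1% of all loci tested. The median was -0.38 over the members and -0.08 over all loci, with a median standard error of 0.52 for a member.

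That direction rested on 1 library. Without B6.Sle1b replicate 1 the median of the members was 0.20 (0.02 over all loci), with 12 of 28 below 0 (48.3% of all loci) and 16 above (51.7%), and again 0 members were called, with 5 loci called in all (0.0264%). With a covariate for each library's ribosomal protein level the median was 0.22, with 13 of 30 below 0 (48.4% of all loci), and 0 members were called (0.0416% of all loci). Without B6.Sle1b replicate 2 the median was -0.63 (-0.18 over all loci) and 30 of 31 were below 0 (63.2% of all loci). There 0 members were called, with 5 loci called in all. The mean of B6.Sle1b replicates 2 and 3 lay above the Sle1b.IFNγR-/- mean in 16 of the 33 members. The standard deviation was larger in B6.Sle1b than in Sle1b.IFNγR-/- in 30 of the 33. These last counts were not taken over all loci, so neither is read as a trait of the members.

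**Figure D2:**
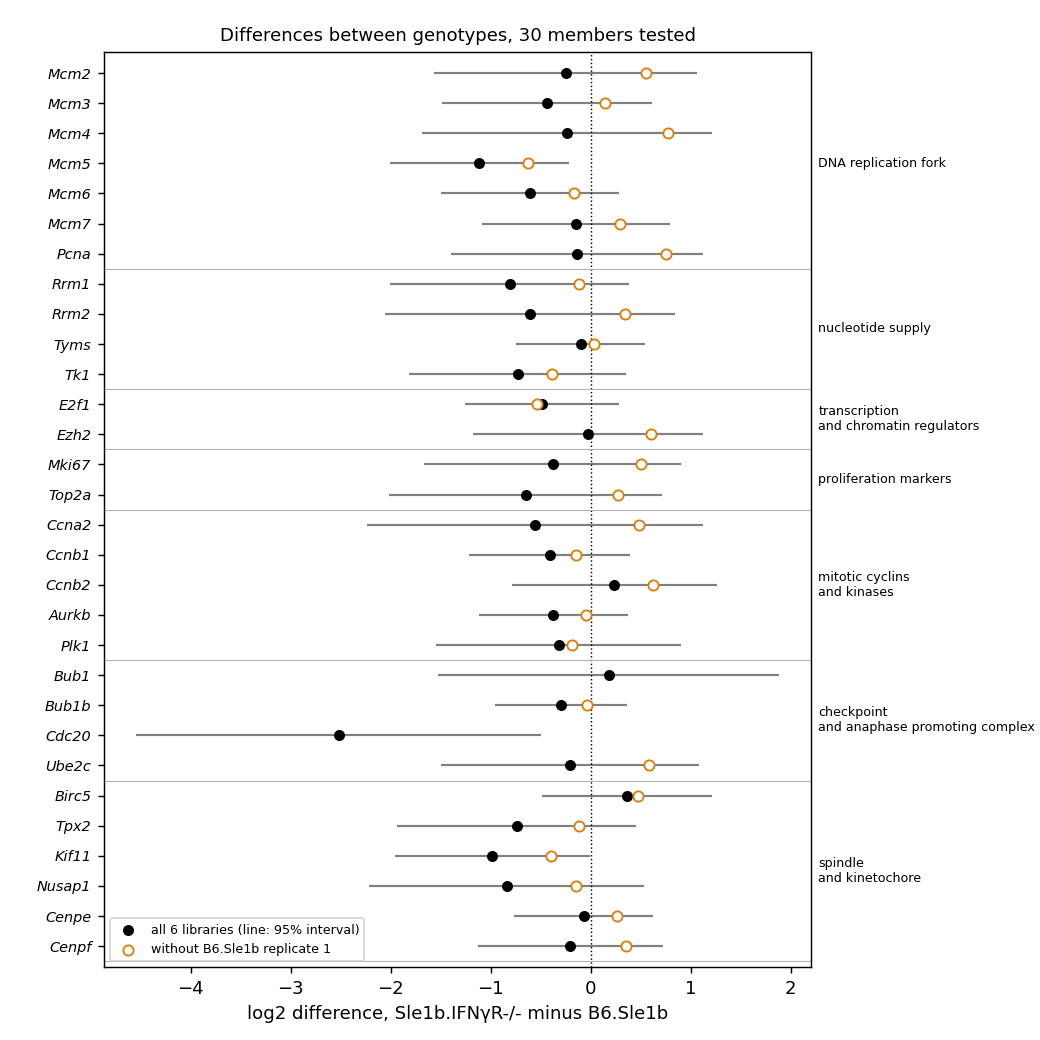
Log2 difference of each of the 30 members tested, Sle1b.IFNγR-/- minus B6.Sle1b, with all 6 libraries (black, with the 95% interval of limma) and without B6.Sle1b replicate 1 (open orange). Every interval but those of Mcm5, Cdc20 and Kif11 crosses 0, and without that library the median moves from -0.38 to 0.20. Bub1 and Cdc20 have no open point because their mean is then below 10.

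Mki67, the gene of the Ki-67 antigen that coats mitotic chromosomes, was the most abundant member and held 32.1% of the members' mean values in B6.Sle1b and 27.5% in Sle1b.IFNγR-/- (chromosome 7, 135689784 to 135716361, GRCm38). It stood at 1914, 178 and 528 scaled counts in the B6.Sle1b libraries, against 436, 499 and 376 without the receptor. The 2 extremes of the 6 libraries were thus both B6.Sle1b, with a 10.7-fold range there and a 1.33-fold range in the receptor-deficient group. The log2 difference was -0.38 (SE 0.60), and 0.50 without B6.Sle1b replicate 1. Top2a, the topoisomerase that untangles replicated chromosomes, had 472, 40.3 and 118 against 71.7, 109 and 74.3, a log2 difference of -0.65 (SE 0.63), or 0.27 without B6.Sle1b replicate 1. Its order of libraries in B6.Sle1b was that of Mki67, and the groups overlapped. The Top2a locus also carried the name Gm23451.

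All 7 genes of the replication fork had a log2 difference below 0, from -1.11 to -0.14, with 5 of 7 above 0 without B6.Sle1b replicate 1. Mcm5, a subunit of the replicative helicase (chromosome 8, 75109569 to 75128439), had 128, 41.1 and 52.5 scaled counts in B6.Sle1b, against 34.1, 30.3 and 25.2 in Sle1b.IFNγR-/-. All 3 receptor-deficient libraries lay below all 3 B6.Sle1b libraries. The means were 74.0 ± 47.4 and 29.9 ± 4.49 (SD, n = 3 each), and the log2 difference was -1.11 (SE 0.41, limma unadjusted p = 0.0183, not past the adjusted threshold). Without B6.Sle1b replicate 1 it was -0.63. Over 19 alternative settings it stayed between -1.44 and -0.52. Mcm3, the subunit of highest mean, had 142, 25.5 and 67.5 against 43.7, 50.6 and 44.3, with overlap and a log2 difference of -0.44 (SE 0.49), or 0.15 without B6.Sle1b replicate 1. Mcm2, Mcm4, Mcm6 and Mcm7 had log2 differences of -0.25, -0.24, -0.61 and -0.15, and overlapped. For Pcna, the clamp that holds polymerase on DNA, B6.Sle1b replicates 2 and 3 lay at 21.4 and 20.6, below the 35.0, 35.96 and 37.1 of Sle1b.IFNγR-/-, while replicate 1 was at 139. The locus of Mcm7 also held the microRNA genes Mir25 and Mir93.

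Of the 4 genes of nucleotide supply, Rrm1, the large subunit of ribonucleotide reductase, had 135, 38.6 and 25.3 scaled counts in B6.Sle1b, against 39.3, 38.2 and 15.6 in Sle1b.IFNγR-/-. The groups overlapped, and the log2 difference was -0.81 (SE 0.55), or -0.12 without B6.Sle1b replicate 1. Its partner subunit Rrm2 had 105, 12.3 and 15.0 against 28.0, 14.6 and 13.2, with overlap. Tyms, thymidylate synthase, was among the steadiest members, at 77.4, 60.0 and 57.2 against 70.8, 52.8 and 57.5. Its means were 64.9 ± 10.97 and 60.4 ± 9.35 (SD, n = 3 each) and its log2 difference was -0.10 (95% interval -0.75 to 0.54). Tk1, thymidine kinase, had a log2 difference of -0.73 (SE 0.50) between means of 23.2 and 12.9.

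E2f1, the transcription factor that opens S phase, was the third member without overlap beside Mcm5 and Cdc20. Its locus also carried the name of the neighbouring gene Necab3. It stood at 29.6, 35.3 and 30.9 scaled counts in the B6.Sle1b libraries, against 18.4, 21.4 and 28.7 without the receptor. B6.Sle1b replicate 1 was here the lowest of its group, unlike in most members. The log2 difference was -0.49 (SE 0.36, limma unadjusted p = 0.197) and -0.54 without that library, and it was 0.08 under scaling to ribosomal protein genes. Ezh2, the histone methyltransferase needed by germinal centre B cells, had 90.7, 15.6 and 36.6 against 37.6, 52.8 and 25.2. Its groups overlapped, with a log2 difference of -0.03 (SE 0.53), or 0.60 without B6.Sle1b replicate 1.

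Among mitotic cyclins and kinases, Ccna2 (cyclin A2) had the widest range of those tested, at 238, 10.7 and 61.9 scaled counts in B6.Sle1b, against 51.6, 37.1 and 26.4 in Sle1b.IFNγR-/-. The log2 difference was -0.56 (SE 0.78), with overlap, or 0.49 without B6.Sle1b replicate 1. Ccnb1 (cyclin B1) had 75.4, 42.7 and 43.1 against 53.3, 25.8 and 41.9, a log2 difference of -0.41 (SE 0.37), or -0.15 without that library. Ccnb2 (cyclin B2) was 1 of 3 members with a positive difference, at 26.7 ± 14.03 against 31.8 ± 14.9 (SD, n = 3 each). Aurkb, the kinase of the chromosomal passenger complex, had 113, 61.7 and 51.6 against 63.0, 46.1 and 56.3, and Plk1, a kinase of spindle assembly, 15.4 ± 3.08 against 13.8 ± 9.18. The kinases Cdk1 and Aurka were near the limit of detection, with between 2 and 21 fragments per library for Cdk1 and between 0 and 12 for Aurka.

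Cdc20, the activator of the anaphase promoting complex, showed the widest difference of the members (chromosome 4, 118432901 to 118437352). It stood at 37.7, 11.5 and 19.7 scaled counts in the B6.Sle1b libraries, from 37, 14 and 21 fragments. In Sle1b.IFNγR-/- they were 7.00, 5.62 and 0, from 8, 5 and 0 fragments, and a count of 0 allows up to 3 fragments or 3.59 scaled counts. All receptor-deficient libraries lay below all B6.Sle1b libraries, with means of 22.97 ± 13.4 and 4.205 ± 3.71 (SD, n = 3 each). The log2 difference was -2.52 (SE 0.94, limma unadjusted p = 0.0185, not past the adjusted threshold). Cdc20 entered the test only through its B6.Sle1b values, and over the 17 alternatives in which it was tested the difference ranged from -3.07 to -1.17. Bub1b, the checkpoint kinase that inhibits Cdc20, had 159, 88.8 and 95.6 against 89.2, 76.4 and 105, with overlap and a log2 difference of -0.30 (SE 0.31), or -0.04 without B6.Sle1b replicate 1. Bub1, its paralogue at the kinetochore, had 43.8, 3.29 and 7.50 against 13.1, 16.9 and 8.38, with overlap. Its log2 difference was positive, at 0.18 (SE 0.79), though its mean was higher in B6.Sle1b (18.2 ± 22.3 against 12.8 ± 4.25). Ube2c, the ubiquitin-conjugating enzyme of the anaphase promoting complex, had 35.7 ± 35.8 against 21.6 ± 1.09 (SD, n = 3 each for both genes).

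Of the spindle and kinetochore genes, Kif11, the motor that pushes spindle poles apart, had 184, 44.4 and 66.6 scaled counts in B6.Sle1b, against 35.9, 37.1 and 51.5 in Sle1b.IFNγR-/- (chromosome 19, 37376403 to 37421859). One receptor-deficient library exceeded the lowest B6.Sle1b library. The log2 difference was -0.98 (SE 0.45, limma unadjusted p = 0.0477, not past the adjusted threshold), and -0.40 without B6.Sle1b replicate 1. Cenpe, the kinetochore motor of chromosome alignment, had 202, 86.3 and 117 against 129, 121 and 113, and Cenpf, a large kinetochore protein, 250, 65.8 and 90.9 against 110, 124 and 71.9. Both overlapped, with log2 differences of -0.07 (SE 0.32) and -0.20 (SE 0.43), or 0.26 and 0.36 without B6.Sle1b replicate 1. Birc5 (survivin, of the passenger complex) was at 29.8 ± 12.2 and 36.5 ± 5.98 (SD, n = 3 each), the largest positive difference at 0.36 (SE 0.39). The spindle assembly gene Tpx2 and the microtubule-binding gene Nusap1 had log2 differences of -0.74 (SE 0.55) and -0.84 (SE 0.63), and -0.12 and -0.14 without B6.Sle1b replicate 1. Kif20a, a motor of cytokinesis, was at 0 in 4 of 6 libraries, with 9 fragments in B6.Sle1b replicate 1 and 3 in Sle1b.IFNγR-/- replicate 3.

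Per kilobase of annotated exon, in the means of Sle1b.IFNγR-/-, Mki67 stood first at 43.4 scaled counts, followed by Bub1b at 21.1, Ccnb2 at 20.8, Aurkb at 18.7 and Pcna at 15.0. At the bottom were Cdc20 at 2.25, Cdk1 at 1.47, Aurka at 1.33 and Kif20a at 0.276. In B6.Sle1b the level of Mki67 was 86.8 per kilobase, and Cdc20 stood at 12.3. These levels use the union of all annotated exons, so genes with many annotated transcripts come out lower.

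Because most members were highest in 1 library, their proportions to each other were compared as well, a measure added after the values were seen. Within each library a member's value was divided by the sum of the 32 members other than Mki67. By this share 3 members were lower in all 3 receptor-deficient libraries (Cdc20, Mcm5 and Kif11), where 0.614% of all loci tested were, and Cenpe was higher in all 3, where 6.36% were. Nothing is read from these percentages, because the divisor was itself highest in B6.Sle1b replicate 1, as most members were and most loci were not. The shares are a description of these libraries. Cdc20 made up 1.12%, 1.29% and 1.54% in B6.Sle1b, against 0.588%, 0.479% and 0% in Sle1b.IFNγR-/-. Mcm5 made up 3.80%, 4.61% and 4.10% against 2.87%, 2.59% and 2.31%. For Kif11 the shares were 5.46%, 4.98% and 5.20% against 3.01%, 3.16% and 4.72%, and for Cenpe 5.97%, 9.68% and 9.16% against 10.8%, 10.4% and 10.3%. That B6.Sle1b replicate 1 lay with its group in Cdc20, Mcm5 and Kif11 follows from their choice as members without overlap.

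The 6 MCM subunits form 1 ring, so their proportions were also taken within the ring. Mcm5 made up 20.9%, 27.5% and 24.3% of the summed Mcm2 to Mcm7 values in the B6.Sle1b libraries, from 604, 182 and 230 fragments in all. Without the receptor its share lay between 12.3% and 18.7%, from 209, 150 and 171 fragments. Its share did not overlap between the groups and those of the other 5 subunits did. As 8.7% of all loci tested did not overlap in their scaled counts, 1 of 6 is not read as particular to Mcm5. Mcm6 was the steadiest in Sle1b.IFNγR-/-, at 17.2%, 17.3% and 17.5%. Within B6.Sle1b, Mcm4 ranged from 4.78% to 18.05% and Mcm3 from 17.03% to 31.3%. Summed over genes, replication and nucleotide supply stood at 0.657, 0.581 and 0.483 times the mitotic members in the B6.Sle1b libraries, against 0.538, 0.489 and 0.537 times without the receptor, with overlap.

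**Figure D3:**
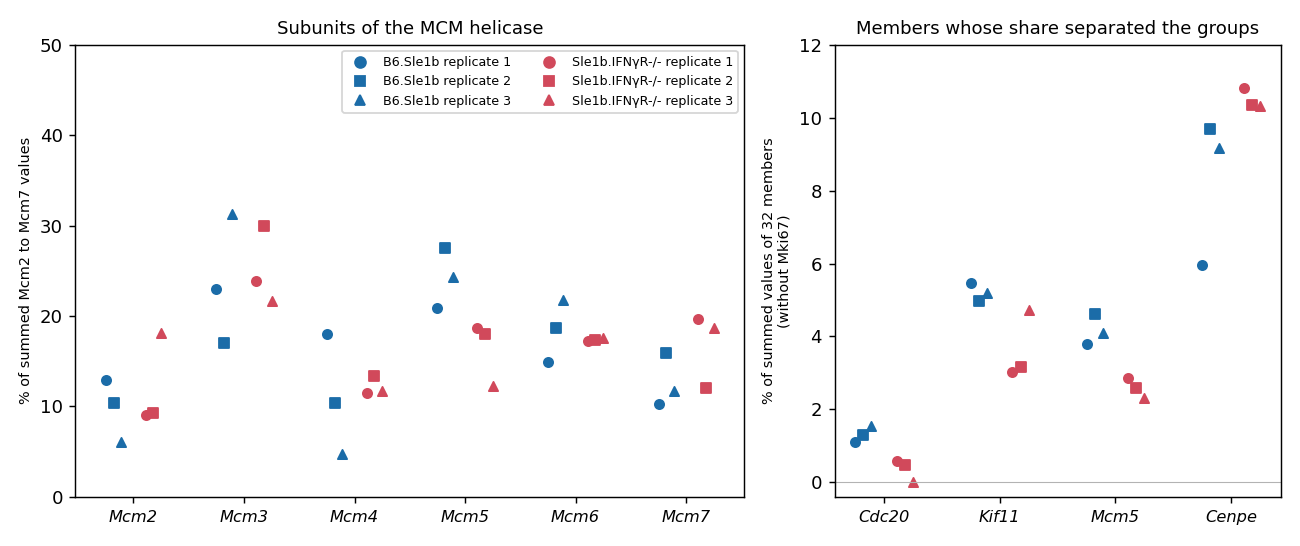
Left, each MCM subunit as a percentage of the summed scaled counts of Mcm2 to Mcm7, and right, 4 members as a percentage of the summed scaled counts of the 32 members other than Mki67. Each point is 1 library (blue B6.Sle1b, red Sle1b.IFNγR-/-). Mcm5, Cdc20 and Kif11 lie lower in every red library than in any blue one, and Cenpe lies higher.

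Other genes of the cell cycle, 193 in 11 lists with 191 matched to a locus, were read in the same fit. Of the 158 tested, 107 had a log2 difference below 0 and 51 above, with a median of -0.20, and 0 were called (limma, adjusted p under 0.05), with 3 at an unadjusted p under 0.05 (3.1% of all loci). The groups did not overlap in 6 lower and 2 higher genes, against 5.19% and 3.51% of all loci, so neither count stood above the background. Without B6.Sle1b replicate 1 the median was 0.06 and 89 were above 0. B6.Sle1b replicate 1 was the highest library in 103 of the 158. By list, the median was -0.20 for 17 genes of origin licensing and firing, -0.28 for 23 polymerase and fork genes, -0.13 for 9 of nucleotide synthesis, -0.45 for 7 G1 cyclins and kinases and -0.17 for 16 E2F, DREAM and FoxM1 regulators. It was -0.32 for 18 other mitotic kinases and checkpoint genes, -0.20 for 15 kinetochore genes, -0.14 for 23 spindle and cytokinesis genes, -0.26 for 13 cohesin and condensin genes, 0.03 for 13 genes of S phase repair and 0.02 for 4 CDK inhibitors and antiproliferative genes. Without B6.Sle1b replicate 1 these medians were, in the same order, -0.03, -0.04, 0.10, -0.29, 0.15, -0.13, 0.03, 0.14, 0.36, 0.10 and 0.72.

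Spag5 (astrin, a spindle protein) had the smallest p of these genes, at 20.4, 37.0 and 30.9 scaled counts in B6.Sle1b, against 11.4, 15.7 and 10.8 in Sle1b.IFNγR-/-. The groups did not overlap, and the log2 difference was -1.14 (SE 0.42), or -1.37 without B6.Sle1b replicate 1. Nek2, a centrosome kinase, had 76.4, 61.7 and 50.6 against 40.7, 31.5 and 40.7, also without overlap, and -0.72 (SE 0.32). Cdc25a, the phosphatase that activates Cdk2 at the start of S phase, had 34.6, 30.4 and 41.2 against 26.2, 24.7 and 8.38, without overlap, and -0.95 (SE 0.45). Orc3, of the origin recognition complex, had 56.0, 27.1 and 66.6 against 26.2, 30.3 and 20.4, with overlap, and -0.86 (SE 0.39). Orc5, of the same complex, lay the other way, at 14.3, 10.7 and 15.0 against 28.0, 21.4 and 24.0, with no overlap and a difference of 0.83 (SE 0.41), at a locus that also carried the name Gm15421. None passed the adjusted threshold.

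The other genes of smallest p per list and direction had log2 differences, in the direction Sle1b.IFNγR-/- minus B6.Sle1b, with overlapping groups unless stated. Lower were the maintenance methyltransferase Dnmt1 (-0.88), the E2F partner Tfdp1 (-1.38), the pyrimidine synthesis gene Cad (-0.55), the CDK inhibitor Cdkn1a (-0.41), the spindle motor Kif15 (-0.92), the condensin subunit Ncapd2 (-0.59) and the recombination gene Rad54b (-0.64). Higher were Rfc4 (0.41), Ctps (0.35), cyclin D1 (Ccnd1, 0.31), Rb1 (0.73), Cdkn1b (0.57), Cdca5 (0.17), Ndc80 (0.19), Kif23 (0.35), Ncapg (0.41) and the helicase gene Blm (0.43, groups not overlapping). Over the alternatives, Ccnd1 (-0.35 to 1.16), Cdkn1b (-0.43 to 1.60), Ncapg (-0.38 to 1.22), Cdca5 (-0.07 to 0.70), Ndc80 (-0.05 to 0.78), Cad (-1.01 to 0.11), Cdkn1a (-0.66 to 0.15) and Rb1 (-0.99 to 2.201) changed sign, and Ncapd2 came to -0.01. The name Rb1 stood at 3 loci and Blm at 6, and the values given are those of the locus of highest mean. Rb1 was at 1.64 scaled counts in B6.Sle1b replicate 2, against 171 and 51.6 in the other B6.Sle1b libraries. Without replicate 2 its difference was -0.99. Rb1 was called with a housekeeping gene covariate only (adjusted p = 0.0322, limma, and between 0.4698 and 1.00 in the other 18 alternatives).

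The summed markers of B, T, plasma, germinal centre and erythroid cells were, like the members' sum, highest in B6.Sle1b replicate 1. Some single genes of the T cell, germinal centre and erythroid lists were highest in another library. B6.Sle1b replicate 2, the lowest library of the members' sum, was also the lowest of the 6 for the erythroid, B cell and T cell lists, and was not for the plasma cell and germinal centre lists. Over 13 erythroid precursor genes, with Klf1 and Alas2 above 0 in every library, the summed scaled counts were 3558, 332 and 740 in B6.Sle1b, against 1106, 918 and 823 in Sle1b.IFNγR-/-. Over 6 plasma cell genes, with Sdc1 and Prdm1 above 0 in every library, they were 971, 198 and 299 against 161, 183 and 162, without overlap between the groups. Of all single loci tested, 8.7% did not overlap. Over 6 germinal centre B cell genes, with S1pr2 above 0 in every library, the sums were 219, 122 and 121 against 126, 137 and 126. Over 6 B cell genes the sums were between 767 and 1674 in B6.Sle1b and between 797 and 874 in Sle1b.IFNγR-/-, and over 7 T cell genes between 264 and 519.7 and between 286 and 328. The part of these cell types in the members' levels was not tested. Each of these lists had 0 genes called (limma). At an unadjusted p under 0.05 there were 3 of the 5 plasma cell genes tested and 0 genes of the others of these lists, against 3.1% of all loci. The plasma cell list is 1 of several looked at, and no result about genotype is read from it. The median log2 differences were 0.17, -1.26, -0.21, -0.28 and -0.11 in the order given, or 0.98, -0.54, 0.01, 0.11 and 0.02 without B6.Sle1b replicate 1.

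Markers of other cells that could be present had sums between 154 and 351.5 for 8 neutrophil precursor genes in B6.Sle1b and between 178 and 198 in Sle1b.IFNγR-/-. For 6 megakaryocyte genes they were between 194 and 333 and between 198 and 228, for 6 red pulp macrophage genes between 293 and 1036 and between 439.8 and 525, and for 4 monocyte genes between 133 and 428 and between 164 and 169.6. For 5 dendritic cell genes they were between 157 and 265 and between 193 and 199, for 5 stromal and endothelial genes between 111 and 236 and between 120 and 137, and for 4 NK cell genes between 18.1 and 32.6 and between 17.5 and 31.1. B6.Sle1b replicate 1 had the highest sum of the 6 libraries in each list of this paragraph up to here. For 4 pancreas genes, a check for adjacent tissue, sums were between 3.498 and 37.8.

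**Figure D4:**
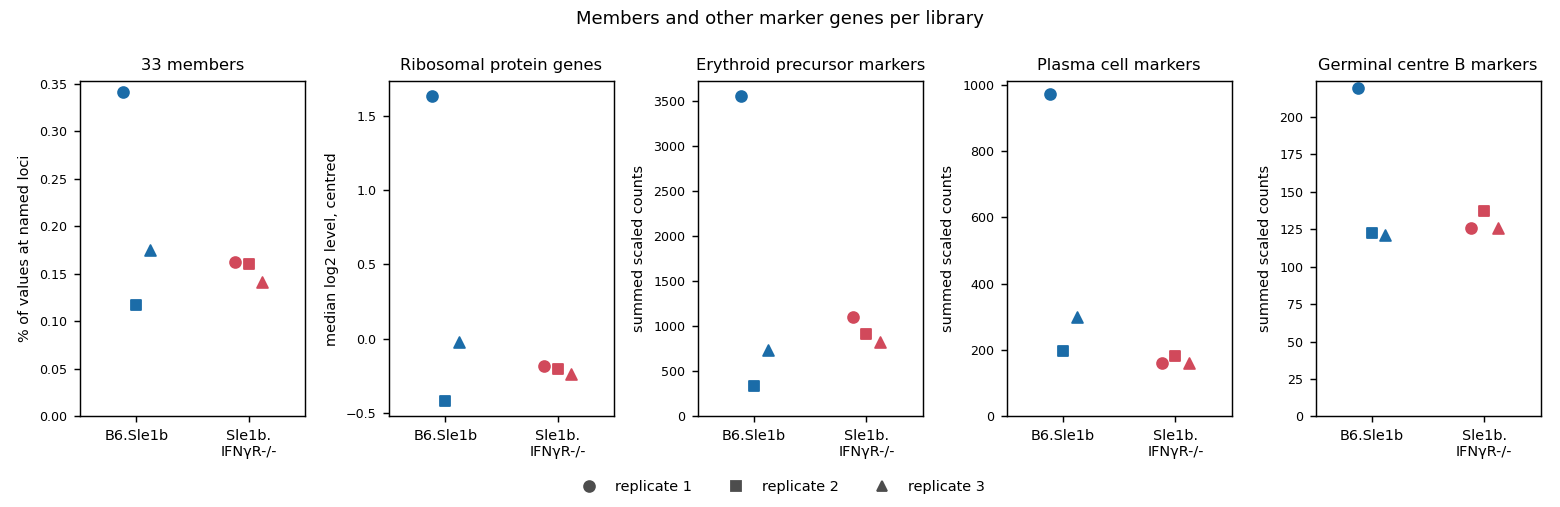
From left, the 33 members as a percentage of all values at named loci, the centred median log2 level of 28 ribosomal protein genes, and summed scaled counts of erythroid precursor, plasma cell and germinal centre B cell markers, 1 point per library. B6.Sle1b replicate 1 is the highest point in all 5 panels, and the Sle1b.IFNγR-/- points lie between the B6.Sle1b points in every panel but that of plasma cells.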

How the data were processed

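Per the labels' protocols, spleen RNA was extracted with TRIzol and made into libraries with the NuGEN Ovation V2 amplification kit. Cufflinks 2.2.1, TopHat2 2.0.9, CASAVA and the build GRCm38 are named per the submitters' processing notes. Which annotation, strand setting and rule for multiply mapped reads applied is not given in the sources used here, so reads of overlapping or antisense genes cannot be told apart. Per the file headers, the deposited signal is a count of fragments at each locus after scaling by quartile. The 1530481 rows were collapsed to 426574 loci, with 0 disagreements. In each library 99.8% of low values were whole multiples, within 0.01, of 1 step, which gave the fragments. Count models were not run on these fragments, and the values were tested as deposited. Another 24 columns were not used.

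For each name the locus of highest mean was taken. The 19227 named loci whose mean reached 10 were fitted with limma 3.58.1 in R 4.3.3 on log2(value + 1) with a trend on mean level and no term but genotype, and p-values were adjusted over all of them. Differences on this scale are understated for low genes. The procedure was tested on simulated data, where most of the changes placed in the data were not called. Intervals are limma's, and limits from counts cover counting error only. Of 349 list entries 345 matched a locus. Members with full values were, per role, the one of highest mean and the one of smallest p, with Mki67 and Top2a. Pcna, Rrm2, Aurkb, Bub1 and Cenpf were also given in full, outside this rule. Others are summarised. For the other lists the gene of smallest p in each direction was named. The members and lists were chosen with earlier results of these data known. Coordinates and exon lengths are from GENCODE M21 on GRCm38, and promoters from RefSeq. Python 3.11.15, pandas 2.3.3, numpy 2.4.6 and matplotlib 3.10.9 were used. The levels of some single marker genes are not reported here.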

Additional observations from a re-analysis of the deposited data

How the results depend on the processing

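In the 19 alternatives run, 0 members were called in each. The number of members below 0, 27 of 30 as reported, was 10 of 30 with values scaled to ribosomal protein genes. It was 13 with the ribosomal covariate (48.4% of all loci) and 14 with the housekeeping covariate (49.3%). With a minimum mean of 50 it was 11 of 11, against 66.0% of all loci tested there. Mcm3, Mcm5, Ccna2 and Kif11 reached that mean only through B6.Sle1b, as their Sle1b.IFNγR-/- means were below 50. Such a filter favours a negative sign. When single libraries were left out the number of members below 0 ranged from 12 to 30. The median of the members turned positive in 4 alternatives, at 0.22 for both ribosomal settings, 0.17 for the housekeeping covariate and 0.20 without B6.Sle1b replicate 1. It lay between -0.63 and -0.23 in the others. The difference between replication and mitosis medians, -0.12 as reported, was positive with either covariate (0.23 and 0.24) and without B6.Sle1b replicate 1 (0.19). The cause was not tested.

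Over all loci, 0 were called as reported, 1 with totals of named loci, 1 with ribosomal scaling, 8 with the ribosomal and 13 with the housekeeping covariate, and between 0 and 5 without single libraries. Scaling to named totals or ribosomal genes moved the median of all loci from -0.08 to 0.06 or 0.49, and the members' medians there were -0.23 and 0.22. Under ribosomal scaling 13.7% of all loci lay below 0, so the positive sign of the members there follows the scaling, and their median was below that of all loci. Mcm5, Cdc20 and Kif11 were below 0 in every alternative that tested them, and E2f1 in all but ribosomal scaling. The replicate block changed no call: with it 0 members and 0 loci were called, 27 members were below 0, and the members' median was -0.38 and the replication minus mitosis difference -0.12. No pairing by number was seen, as same-numbered libraries had correlations of deviations of 0.012, -0.027 and -0.011. With 3 libraries per group such values cannot exclude that samples were paired. Count models were not run. Cdc20 and Bub1 gave no value without B6.Sle1b replicate 1, as their mean was then under 10. Precision is limited by 3 libraries per group, with a median standard error of 0.52.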
